A study of Mus musculus with 28 samples.

Results

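The regions described here are the 5 kb windows that begin within the last 2 Mb of chromosomes 1 to 19 of the mouse, next to the distal telomere. Windows start at multiples of 5 kb and the chromosome ends are those of build mm10. The rule gave 7600 windows of the 492558 on these 19 chromosomes, which is 1.54% of the length of these chromosomes. No measured value entered the rule. The last 100 kb of each chromosome holds 380 of the windows, and no island reached more than 207 bp into it in any library. As background, mm10 has an assembly gap at each chromosome end, so the telomere repeats themselves are not in it. The results by window, band, zone and chromosome end come from the 7220 windows that start more than 100 kb from the annotated end. On chromosomes 4 and 6 the last island of any library ended 149916 and 149946 bp from the end. Part of their 100 to 200 kb band was therefore without islands of either mark. The ratios of cover in all distal windows to cover in other windows count the length of all 7600.

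Telomeres are arrays of the repeat TTAGGG. In mouse cells they and the chromatin beside them can carry H3K9me3, the trimethyl mark on lysine 9 of histone H3, which heterochromatin protein 1 binds and which goes with gene silencing. H3K9Ac, acetylation of the same lysine, goes with active promoters. Mouse chromosomes have their centromere at the start of the sequence, so the distal end is the end of the single long arm. Setdb1 is an H3K9 methyltransferase best known for silencing retroelements.

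Both marks were mapped by chromatin immunoprecipitation of chromatin digested with micrococcal nuclease, followed by sequencing, in 2 established mouse lines, the melanoma B16OVA (B16 below) and the colon adenocarcinoma MC38. Control cells of each line carried the empty pCRISPR-v2-puro construct and Setdb1 KO cells a guide against Setdb1, and cells of both genotypes were kept with puromycin. For each mark there were 3 numbered replicates of B16 control, B16 KO, MC38 control and MC38 KO, so 12 libraries per mark and 24 in all. The labels do not say whether replicates were separate cultures or whether the KO was a single clone. The p-values therefore cover only the spread among these libraries, which may be technical. The H3K9me3 libraries held 15198930 to 45414798 island reads on chromosomes 1 to 19 and X and the H3K9Ac libraries 28451633 to 78082966, of which 255335 to 591514 and 593833 to 1463547 lay in the distal windows. MC38 KO replicate 3 stood apart. Its H3K9me3 islands covered 215 Mb of the genome against 442 and 563 Mb in the other libraries of its group. Among markers of the lines, H3K9Ac at the melanocyte genes Tyr and Dct was 79.2 to 127 RPM in the 6 B16 libraries and 0 in the 6 MC38 libraries. RPM are island reads per 1000000 counted reads after TMM scaling. The counted reads are summed separately for genes, windows, bands and blocks, so RPM of different units cannot be compared. Summed over each marker list, H3K9Ac was 470 to 579 RPM in B16 and 129 to 188 RPM in MC38 for 6 melanoma genes, 22.99 to 120 and 119 to 168 RPM for 5 measured colon genes, 130.0 to 178 and 219 to 325 RPM for 5 mesenchymal genes, and 32.3 to 47.4 and 30.6 to 76.7 RPM for 3 measured leukocyte genes. Single members went against their lists or did not separate the lines. The colon genes Vil1, Cdh1 and Cdx2 overlapped between the lines, and the highest Cdx2 value, 17.96 RPM, was in B16. Krt8 and Krt18 were the measured colon genes that separated the lines. The mesenchymal genes Col1a2 and Vim and the melanoma gene Mitf overlapped too, and the collagen gene Col1a1 was not higher in MC38. The epithelial gene Epcam had under 10 H3K9Ac island reads on average. H3K9Ac at the leukocyte genes Ptprc and Itgam was 0 in all B16 libraries. H3K9Ac at Setdb1 was 24.3 to 34.2 RPM in B16 and 28.7 to 53.8 RPM in MC38, which does not check the deletion.

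The island files hold no sequence and no genome of this build was used, so promoters stand in for the windows. RefSeq promoters (GRCm38.p6, 250 bases before to 50 after each gene start) were found for 539 of the 896 genes of the distal windows. Each promoter was classed by the 5 kb window that holds its gene start. A window counted as marked when 2500 bp or more of it lay under islands in each library named. Whether the promoter bases themselves lay under an island was not checked. With 1 chromosome and genes without a proper name left out, 13 promoters of protein-coding genes were in windows marked by H3K9me3 in all 6 B16 libraries. Another 179 were in windows marked by H3K9Ac in all 12 libraries. The 3 of each class nearest the end of their chromosomes, with at most 1 per chromosome, are shown. They set the sequence of starts in H3K9me3 windows beside that of starts in H3K9Ac windows. Capitals mark each CG pair and all are written 5′ to 3′ along the gene's strand. The H3K9me3 starts belong to Mucl2, a mucin-like gene (chr15:103899263-103899562, minus strand, 1 CG), Vmn2r129, a pheromone receptor (chr4:156330853-156331152, plus, 2 CG), and Ptchd3 (chr11:121829968-121830267, plus, 14 CG).
Mucl2: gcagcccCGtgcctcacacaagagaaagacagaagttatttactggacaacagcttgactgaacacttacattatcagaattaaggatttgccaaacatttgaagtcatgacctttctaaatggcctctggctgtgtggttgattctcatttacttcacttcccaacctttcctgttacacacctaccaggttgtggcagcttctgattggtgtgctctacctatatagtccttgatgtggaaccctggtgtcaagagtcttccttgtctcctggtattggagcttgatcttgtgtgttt
Vmn2r129: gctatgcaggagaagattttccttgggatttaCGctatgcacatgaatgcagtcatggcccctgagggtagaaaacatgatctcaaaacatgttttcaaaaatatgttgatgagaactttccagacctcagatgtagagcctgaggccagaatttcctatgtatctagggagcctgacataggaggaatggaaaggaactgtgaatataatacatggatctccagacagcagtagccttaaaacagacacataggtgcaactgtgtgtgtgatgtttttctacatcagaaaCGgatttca
Ptchd3: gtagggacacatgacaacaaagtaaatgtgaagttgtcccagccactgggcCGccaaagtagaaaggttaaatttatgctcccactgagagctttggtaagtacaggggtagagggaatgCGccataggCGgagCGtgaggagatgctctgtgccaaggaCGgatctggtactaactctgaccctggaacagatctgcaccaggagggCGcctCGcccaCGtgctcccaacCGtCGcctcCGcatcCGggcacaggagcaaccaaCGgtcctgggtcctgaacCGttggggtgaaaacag
The H3K9Ac starts belong to Tpcn2, an endolysosomal ion channel (chr7:145283962-145284261, minus, 6 CG), Polr3k, a subunit of RNA polymerase III (chr2:181864110-181864409, plus, 18 CG), and Noc2l, a nucleolar protein that binds p53 (chr4:156235765-156236064, plus, 34 CG).
Tpcn2: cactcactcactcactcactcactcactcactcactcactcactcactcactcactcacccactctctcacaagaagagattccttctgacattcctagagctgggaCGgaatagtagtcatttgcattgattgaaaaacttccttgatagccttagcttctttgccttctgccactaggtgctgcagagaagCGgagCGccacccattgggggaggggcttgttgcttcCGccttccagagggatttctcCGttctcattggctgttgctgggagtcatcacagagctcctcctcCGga
Polr3k: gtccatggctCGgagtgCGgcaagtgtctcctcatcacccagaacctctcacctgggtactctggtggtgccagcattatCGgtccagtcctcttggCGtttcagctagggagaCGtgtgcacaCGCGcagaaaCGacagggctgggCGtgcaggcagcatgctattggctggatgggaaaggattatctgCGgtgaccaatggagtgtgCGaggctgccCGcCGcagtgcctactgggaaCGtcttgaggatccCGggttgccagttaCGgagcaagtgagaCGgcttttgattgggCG
Noc2l: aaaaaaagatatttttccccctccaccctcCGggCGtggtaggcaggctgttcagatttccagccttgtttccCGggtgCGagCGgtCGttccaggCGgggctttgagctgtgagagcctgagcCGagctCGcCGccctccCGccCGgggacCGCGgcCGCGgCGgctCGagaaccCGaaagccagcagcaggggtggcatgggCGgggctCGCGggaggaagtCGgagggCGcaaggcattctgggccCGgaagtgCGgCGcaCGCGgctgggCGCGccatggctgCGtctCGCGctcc
Across the distal windows the 18 promoters of the H3K9me3 class had a median of 3 CG and the 224 of the H3K9Ac class a median of 20.5, where all 654 distal promoters had a median of 9 and all 32619 RefSeq promoters had a median of 7. The same classes over all promoters had medians of 2 and 21. The classes are sets of promoters chosen by the marks, and these medians are a description. TTAGGG on either strand occurred in 70 of the 654 distal promoters (10.7%) and in 10.62% of all promoters. Between 100 and 400 kb from the end, 7 of 87 promoters (8.05%) were in windows marked by H3K9me3 in all 6 B16 libraries, against 1.99% of all promoters. In all 6 MC38 libraries 3 of 87 (3.45%) were in such windows, against 1.085%.

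H3K9me3 islands were densest at the outer edge of the assembled sequence and thinned inward, and more so in B16 than in MC38. In the band 100 to 200 kb from the end, islands covered 42.4, 41.9 and 37.1% of the length in the 3 B16 control libraries and 21.4, 23.4 and 25.6% in the 3 MC38 control libraries, so the lines did not overlap. The means were 40.5 ± 3.0% (SD, n = 3) and 23.5 ± 2.1% (SD, n = 3). In B16 control the cover fell to 29.9 ± 1.1% at 200 to 300 kb, 25.1 ± 0.5% at 300 to 400 kb and 10.9 ± 0.8% at 800 to 900 kb, and its lowest value was 9.88 ± 1.3% at 1500 to 1600 kb. In MC38 control it was 20.1 ± 3.0% and 19.1 ± 2.7% in the next bands inward, stayed between 12.5 and 18.9% from 400 to 1800 kb and ended at 5.37 ± 1.5% at 1900 to 2000 kb, where B16 control had 13.2 ± 1.2%.

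H3K9Ac islands had the opposite outer edge. They covered 6.82 ± 0.57% of the 100 to 200 kb band in B16 control and 11.5 ± 2.2% in MC38 control, where the library values were 7.20, 6.16 and 7.10% in B16 and 9.26, 13.7 and 11.5% in MC38. Cover rose to 30.3 ± 1.6% and 37.4 ± 1.8% at 700 to 800 kb, fell to 16.3 ± 2.8% and 20.3 ± 1.3% at 1200 to 1300 kb, and was 32.2 ± 3.3% and 38.5 ± 1.6% at 1900 to 2000 kb. Starts of protein-coding genes were present throughout, with 24 in the outermost band, 31 at 700 to 800 kb and 18 at 1200 to 1300 kb.

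**Figure D1:**
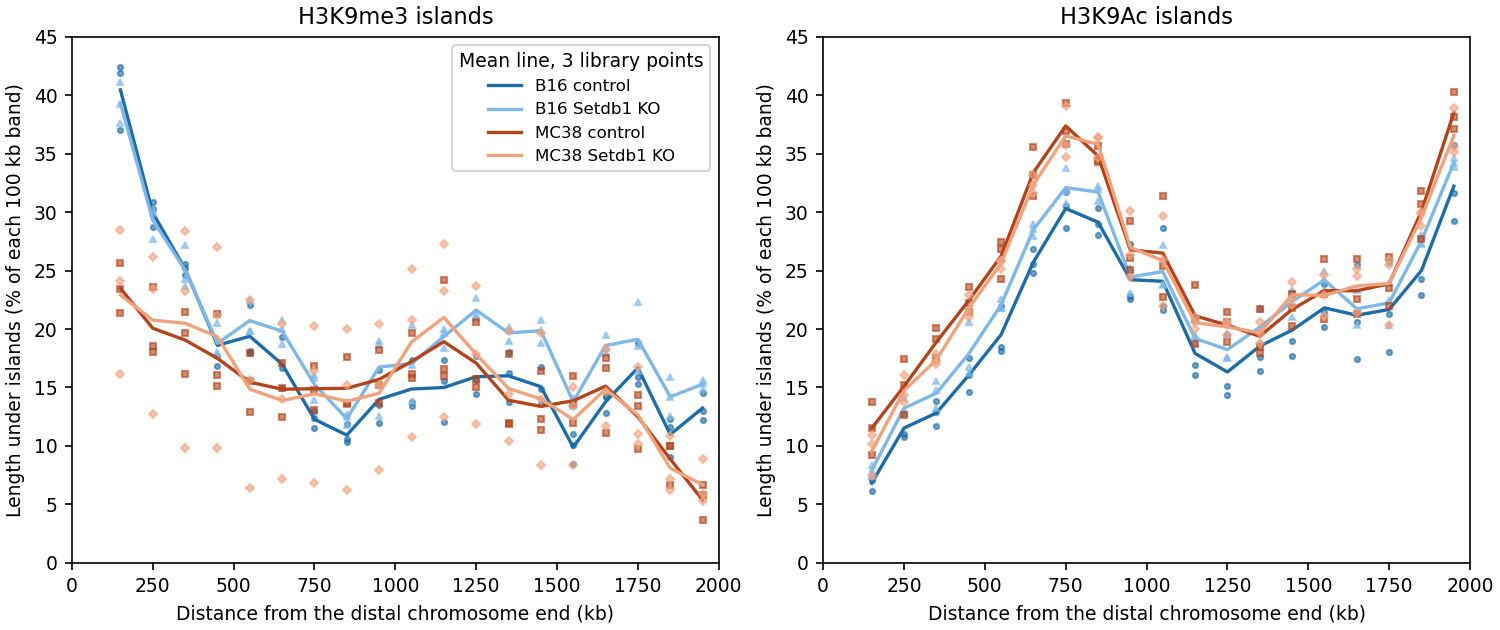
Length under islands of each mark in 100 kb bands (vertical axis, %) against distance from the distal chromosome end (horizontal axis, kb); lines are means of the 4 groups over 3 libraries and points are libraries. H3K9me3 starts at 40.5% in B16 control and 23.5% in MC38 control and declines inward, while H3K9Ac starts at 6.82% and 11.5% and is high at 700 to 800 kb and at 1900 to 2000 kb; MC38 KO replicate 3 gives the low outlying H3K9me3 points of its group.

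The bands from 100 to 400 kb were then joined as an outer zone, a choice made after the profile had been seen. Its H3K9me3 cover was 31.8 ± 1.5% in B16 control and 20.9 ± 2.3% in MC38 control, and that of the remaining distal windows (400 to 2000 kb) 14.6 ± 1.5% and 14.4 ± 2.3%, so the lines stood apart in the outer zone and overlapped inside it. Relative to the other windows of chromosomes 1 to 19 the log2 ratio of the outer zone was 1.34 ± 0.04 in B16 control and 0.44 ± 0.07 in MC38 control, with no overlap between the lines (exact two-sided permutation test, p = 0.1, the smallest that 3 against 3 libraries allow). H3K9Ac was below the other windows there, with log2 ratios of -0.61 in B16 control and -0.21 in MC38 control.

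In B16 the Setdb1 KO libraries had more H3K9me3 cover than controls inward of the outer zone, while the genotypes overlapped within it. The outer zone had 31.2 ± 1.5% in KO libraries against 31.8 ± 1.5% (exact permutation test, p = 0.6), and the 400 to 2000 kb windows 17.6 ± 1.0% against 14.6 ± 1.5%, with no control reaching a KO library (exact permutation test, p = 0.1). Over all distal windows the H3K9me3 length was 5.99, 6.80 and 5.97 Mb in the controls, against 6.91, 6.94 and 7.57 Mb with the KO, so the genotypes did not overlap. The means were 6.25 ± 0.48 and 7.14 ± 0.37 Mb (exact permutation test, p = 0.1, 0.2667 after Benjamini-Hochberg adjustment over the tests of that quantity). Cover of the other windows was 12.6 ± 0.9% and 16.2 ± 1.3% in the same libraries. Island reads on chromosomes 1 to 19 and X numbered 22735412, 15198930 and 16586740 in the controls, against 27152788, 18633551 and 23612038 with the KO. Whether read number bears on the cover was not tested. The log2 ratio of the outer zone to the other windows was 1.34 ± 0.04 in the controls and 0.95 ± 0.09 with the KO, a difference of -0.40 with no overlap (exact permutation test, p = 0.1, adjusted 0.1846). As a share of each library's island reads the distal windows held 2.06 ± 0.13% in the controls and 1.85 ± 0.16% with the KO, which overlapped (exact permutation test, p = 0.3). In 9 of the 19 bands, all of them 700 kb or more from the end, every B16 KO library was above every control. The same held for the other windows of chromosomes 1 to 19, at 14.8 to 17.43% against 11.47 to 13.12%. The smallest adjusted p among the 19 bands was 0.332 (exact permutation test). The same count over bands elsewhere was not made.

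In MC38 the KO libraries spread more than the genotypes differed. The H3K9me3 length was 5.03, 5.12 and 6.50 Mb in the controls, against 7.10, 6.38 and 3.41 Mb with the KO (exact permutation test, p = 1.0). The 3.41 Mb belong to MC38 KO replicate 3, and without it the KO mean was 1.19 Mb above control. Without MC38 KO replicate 1 the difference was -0.657 Mb. The outer-zone log2 ratio was 0.44 ± 0.07 in the controls and 0.41 ± 0.23 with the KO (exact permutation test, p = 1.0), and the difference was -0.10 without KO replicate 3 and 0.11 without KO replicate 1. Island reads per kb of island were 53.6 ± 4.3 and 78.3 ± 13.6 with no overlap (exact permutation test, p = 0.1; replicate 3 had 88.6). In the other windows of the same libraries they were 52.0 ± 3.8 and 77.0 ± 13.4.

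H3K9Ac cover of the distal ends overlapped between the genotypes in both lines. The distal length was 7.18, 6.98 and 8.35 Mb in B16 control, 8.09, 8.03 and 8.22 Mb in B16 KO, 8.42, 9.12 and 9.50 Mb in MC38 control and 8.84, 8.61 and 9.13 Mb in MC38 KO libraries. The exact permutation tests of genotype gave p = 0.4 in B16 and 0.8 in MC38. MC38 control lay above B16 control in every library (exact permutation test, p = 0.1). In the outer zone alone B16 KO was above B16 control in every library, at 11.9 ± 0.8% against 10.4 ± 0.5% (exact permutation test, p = 0.1), as it was in the other windows (15.29, 15.38 and 17.02% in the controls, 17.58 to 18.04% with the KO), and the log2 ratio of the outer zone to those windows differed by 0.03. In the outer zone MC38 KO had 13.9 ± 0.7% and MC38 control 15.2 ± 1.8%.

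**Figure D2:**
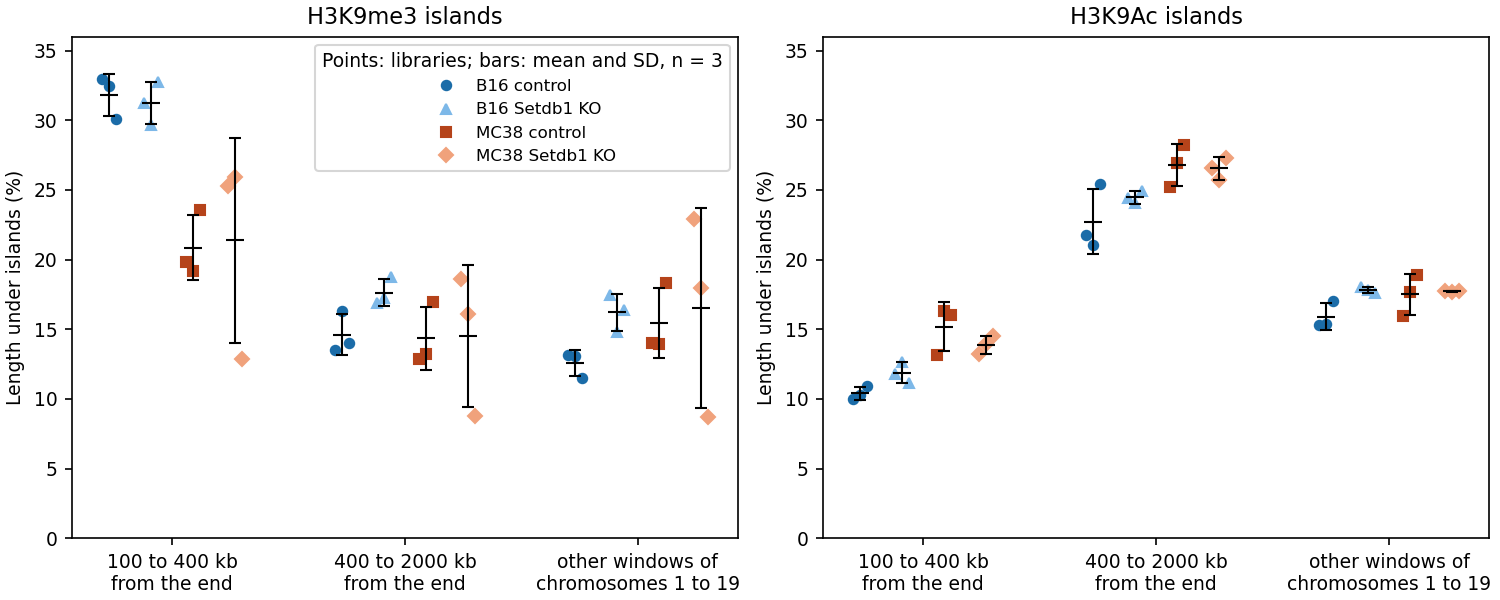
Length under islands (vertical axis, %) in 3 sets of windows for both marks; points are libraries and black bars the mean and SD of 3 libraries. H3K9me3 in the outer zone is near 31.8% in B16 control and 20.9% in MC38 control and near 14.6% and 14.4% inside it, and H3K9Ac is lowest in the outer zone.

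Against the rest of the same chromosomes the distal windows were richer in H3K9Ac in every library and in H3K9me3 in the 6 B16 libraries, where the adjusted p missed 0.05. The log2 ratio of cover in the distal to cover in the other windows was 0.35 ± 0.08 for H3K9Ac (higher in 12 of 12 libraries; exact sign-flip permutation test, two-sided, p = 0.0004883, the smallest for 12 libraries, adjusted 0.004395 over 18 such comparisons). It was 0.30 ± 0.14 for H3K9me3 in B16 (6 of 6 libraries; exact permutation p = 0.03125, the smallest for 6, adjusted 0.05625) and -0.10 ± 0.11 in MC38 (higher in 1 of 6, MC38 KO replicate 3 at 0.04; exact permutation p = 0.0625, adjusted 0.09375). Over the 12 H3K9me3 libraries it was 0.10 ± 0.24 (higher in 7 of 12; exact permutation p = 0.167, adjusted 0.1879). Between the control groups of the lines the H3K9me3 ratio did not overlap (0.39 ± 0.11 and -0.08 ± 0.03, exact permutation test, p = 0.1). The choice of what to compare with turned the direction for H3K9Ac: against the windows 2 to 4 Mb from the end the log2 ratio was -0.36 ± 0.08, lower in 12 of 12 libraries (exact permutation p = 0.0004883, adjusted 0.004395), and against the first 2 Mb after the unassembled start of the chromosome it was 0.04 ± 0.11 (exact permutation p = 0.2812). Both the distal and the other windows hold unassembled sequence, which lowers both percentages. Libraries of 1 line share a genome, so these tests cover the spread between libraries.

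The 19 ends differed far more from each other than groups did on average. In B16 control H3K9me3 cover of the 100 to 2000 kb stretch ran from 1.68% on chromosome 14 to 55.2% on chromosome 12, with a median of 15.6%, and in MC38 control from 2.59% on chromosome 7 to 66.1% on chromosome 3, with a median of 9.54%. Chromosome 12 had 55.2 ± 2.1% in B16 control, 63.4 ± 6.9% in B16 KO, 5.67 ± 1.1% in MC38 control and 6.66 ± 3.9% in MC38 KO. Chromosome 3 was the reverse, at 8.41 ± 1.8%, 6.40 ± 2.1%, 66.1 ± 6.3% and 63.3 ± 9.3% in that order. The outer zone was above the inner windows at 18 of 19 ends in B16 control, 16 in B16 KO and 12 in each MC38 genotype, so the outer edge was a feature of nearly every B16 end and of fewer MC38 ends. On chromosome 15 the band 100 to 200 kb from the end was covered to 89.7% in B16 control and 55.3% in MC38 control, and on chromosome 11 to 77.2% and 32.4%. On chromosome 3 the same band had 0.67% and 2.93%, so its MC38 H3K9me3 lay inward of the edge.

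H3K9Ac cover also varied by end. It ran from 1.75% on chromosome 14, with 5 protein-coding genes in the stretch, to 61.9% on chromosome 11, with 66, in B16 control, and chromosome 10, where 81 protein-coding genes include a cluster of olfactory receptors, had 8.19%. The outer zone exceeded the inner windows at 4 of 19 ends in B16 control and MC38 control. On chromosome 1, H3K9Ac cover was 5.12 ± 2.2% in B16 control and 17.3 ± 3.0% in MC38 control.

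**Figure D3:**
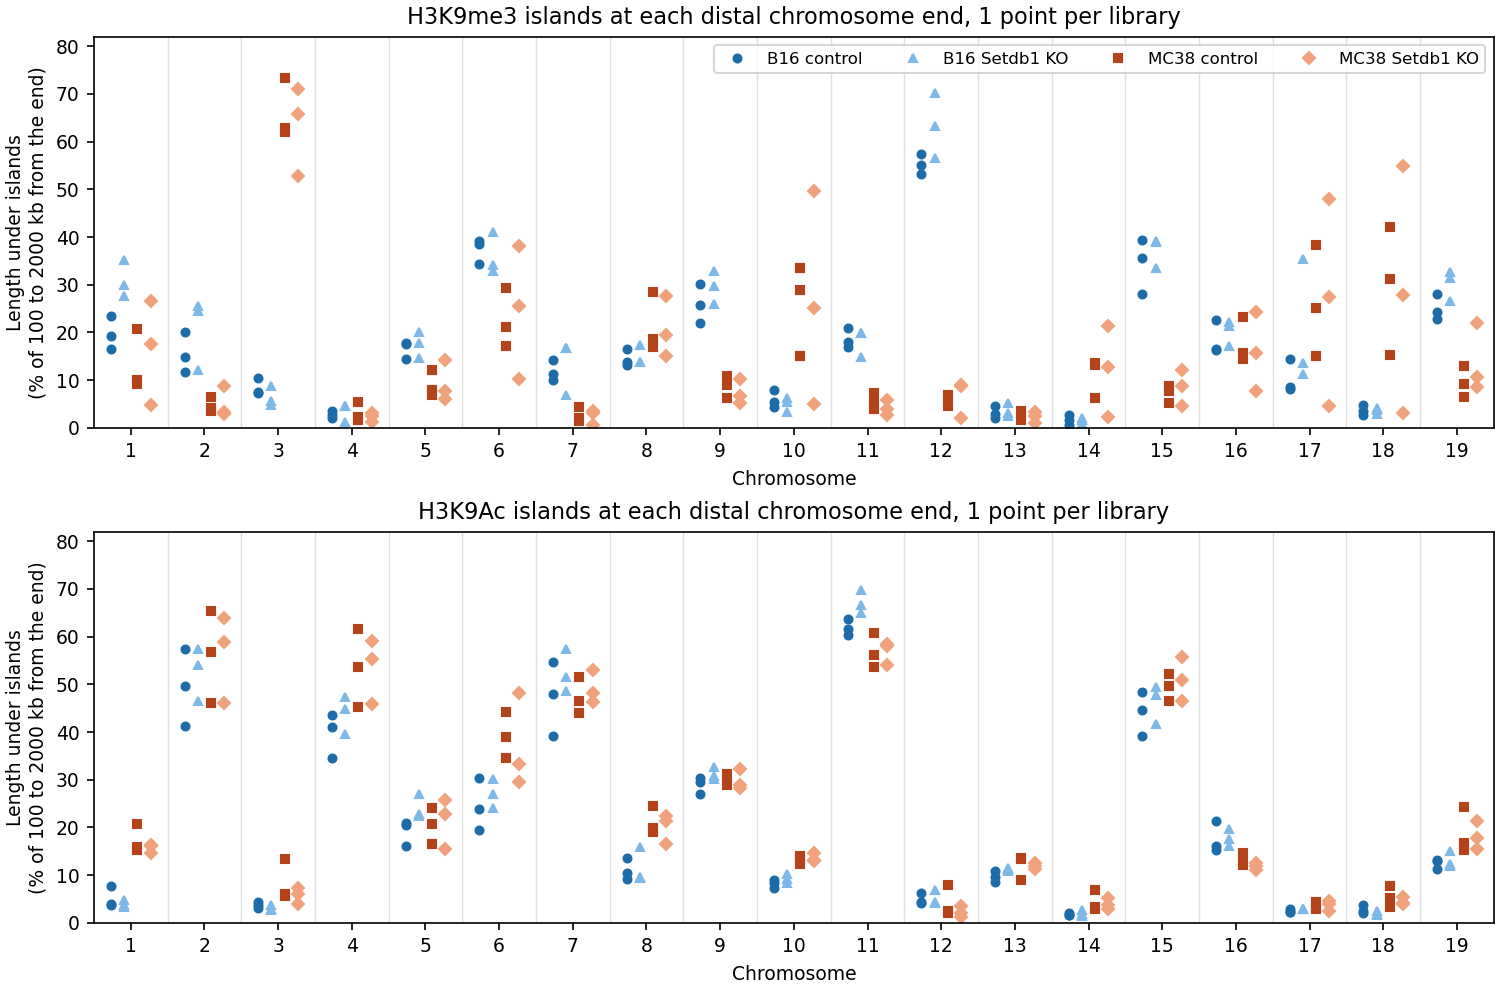
H3K9me3 (top) and H3K9Ac (bottom) cover of the 100 to 2000 kb stretch (vertical axis, %) at the distal end of each chromosome (horizontal axis), 1 point per library, coloured and shaped by group. On chromosomes 3 and 12 the lines lie at opposite H3K9me3 levels in both genotypes; the low MC38 KO points on chromosomes 10, 17 and 18 are replicate 3.

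Island reads summed over the last 2 Mb of each chromosome were compared with edgeR's quasi-likelihood test in a fit over all such blocks of the genome. No distal block passed for a KO comparison in either mark: among all blocks 0.0% were called for H3K9me3 in B16, 0.0% in MC38, 0.0782% for H3K9Ac in B16 and 0.0% in MC38. At an unadjusted p under 0.05 there were 0, 0, 1 and 0 distal blocks of 19 in these comparisons, and DESeq2 called 0 in each. Between the control groups 10 of 19 distal blocks passed for H3K9me3 (52.6%, against 37.0% of all blocks), 4 higher and 6 lower in MC38. Chromosome 3 had 498, 340 and 408 RPM in B16 control and 4481, 3456 and 3754 RPM in MC38 control, a log2 difference of 3.23 ± 0.40 (SE, adjusted p = 0.0002147). Chromosome 12 had 2866, 2470 and 3219 RPM in B16 control and 295, 301 and 293 RPM in MC38 control (log2 difference -3.27 ± 0.31, adjusted p = 6.374e-05). Neither pair of groups overlapped. Chromosome 15 was also lower in MC38, at 384.5 against 1910 RPM on average (-2.31 ± 0.29, adjusted p = 0.0002285), as was chromosome 11 (-1.80 ± 0.44, adjusted p = 0.009664). Chromosomes 2, 9 and 19 were lower too, with log2 differences of -1.30, -1.12 and -1.26. Chromosomes 10, 14 and 18 were higher in MC38 by 2.15, 2.75 and 3.04 on the log2 scale. The calls on chromosomes 3, 11, 12 and 15 held under all 13 settings tried; those on chromosomes 2, 9 and 19 were lost with stricter islands and when any B16 control library, or MC38 control replicate 1 or 3, was left out, that on chromosome 10 when B16 control replicate 2 or 3 or MC38 control replicate 1 was, and those on 10, 14 and 18 with stricter islands.

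For H3K9Ac 11 of 19 distal blocks passed between the control groups (57.9%, against 49.2% of all blocks), 9 higher and 2 lower in MC38. Chromosome 1 had 186, 194 and 294 RPM in B16 control and 621, 786 and 583 RPM in MC38 control (log2 difference 1.56 ± 0.21, adjusted p = 7.228e-05), and the lines did not overlap. Chromosome 16 was lower in MC38, at 495 to 529 RPM against 706 to 861 RPM (-0.59 ± 0.11, adjusted p = 0.0009298). Chromosomes 3, 6, 8, 10, 13, 14, 18 and 19 were higher and chromosome 11 lower in MC38, and of all 11 blocks those on chromosomes 1, 3 and 16 passed under all 13 settings.

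In 100 kb bands, a unit added after the profile had been seen, the KO comparisons called 1 of 332 distal bands for H3K9me3 in B16 (on chromosome 14, higher; 0.667% of all bands were called; 22 by DESeq2), a call lost with DESeq2 size factors, the replicate block, stricter islands, a fit of only the B16 libraries, or without B16 KO replicate 1 or 3 or B16 control replicate 2 or 3, and 0 in MC38 (0.151% of all bands; 31 at an unadjusted p under 0.05, 25 by DESeq2). For H3K9Ac they called 0 of 308 in B16 (0.00521% of all bands; 7 at an unadjusted p under 0.05, 5 by DESeq2) and 0 in MC38 (0.0156% of all bands; 1 unadjusted, 1 by DESeq2). The shares of all bands are those of edgeR. Over all bands DESeq2 called 672 higher and 1658 lower of 22493 for H3K9me3 in B16 and 361 higher and 849 lower in MC38. For H3K9Ac it called 154 higher and 293 lower of 19194 in B16 and 226 higher and 323 lower in MC38. Between the control groups 22 bands were higher and 22 lower in MC38 for H3K9me3 (13.25%, against 9.82% of all bands), and 37 higher and 23 lower for H3K9Ac (19.48%, against 29.1%). Of the 56 outer-zone bands tested for H3K9me3, 1 was higher, on chromosome 3, and 4 were lower, on chromosomes 9, 12 and 19.

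At the scale of single windows the marks hardly met. In B16 control, counting a window as marked when 2500 bp or more of it lay under islands in each of the 3 libraries, 716 of 7220 windows carried H3K9me3 alone, 1050 H3K9Ac alone and 0 both, and in MC38 control 533, 1324 and 2. The outer zone held 251 of its 1140 windows under H3K9me3 alone in B16 control (22.02%), where the windows outside the distal ends had 5.90%, and 119 in MC38 control (10.4%, against 6.74%). Windows with H3K9me3 islands in all 12 libraries made up 55 of 1140 in the outer zone (4.83%), 30 of 6080 further in (0.493%) and 0.673% of the other windows, so the H3K9me3 that all groups shared lay mostly at the edge. The windows that separated the lines were placed differently. Of 104 with H3K9me3 in all 6 MC38 libraries and in none of B16, 103 were inward of 400 kb and 99 on chromosome 3. These windows made up 0.088% of the outer zone and 1.69% of the windows further in, against 0.80% of the other windows. Of 113 with the reverse pattern 56 were on chromosome 12 and 20 on chromosome 15. Of those 113, 26 lay in the outer zone (2.28% of its windows) and 87 further in (1.43%), against 0.58% of the other windows.

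The longest stretches that differed between the control groups were runs of adjacent called windows. H3K9me3 was higher in MC38 over 75 kb of Lrrc7, a synaptic scaffold gene (chr3:158490001-158565000, mm10), with 14.1 RPM per window in MC38 control and 0.0 in B16 control, and over 55 kb and 50 kb nearer the end of the same chromosome. It was higher in B16 over 35 kb of Macc1, a gene linked to metastasis of colon cancer (chr12:119430001-119465000), with 10.3 and 0.0 RPM, and over 30 kb on the centromere side of the HoxC genes (chr15:102830001-102860000), with 13.6 and 0.0 RPM. H3K9Ac was higher in MC38 over 30 kb of Plxna2, a semaphorin receptor (chr1:194785001-194815000), with 9.01 RPM against 0.0, and over 15 kb at Hoxc9 (chr15:102975001-102990000), with 30.25 RPM against 8.84. It was higher in B16 over 50 kb of Bace2, a protease that acts in pigment cells on the melanosome protein Pmel (chr16:97380001-97430000), with 11.95 RPM against 0.0. In all, 208 windows were higher and 265 lower in MC38 for H3K9me3 of 3943 tested (7.04% of all windows were called), and 124 higher and 160 lower for H3K9Ac of 3586 (7.92%, against 10.9%).

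Few single windows passed edgeR's test for the KO. For H3K9me3 edgeR called 2 higher and 3 lower in B16 (0.127% of 3943; 0.385% of all windows were called) and 2 higher and 1 lower in MC38 (0.0761%; 0.0548% of all windows), and 8 windows differed in their KO effect by line (0.203%; 0.429% of all windows). In B16, 2 windows of chromosome 3 fell from 9.75, 3.88 and 10.8 RPM (chr3:158925001-158930000) and from 3.91, 5.49 and 8.38 RPM (chr3:159160001-159165000) to 0 in all 3 KO libraries, where both MC38 genotypes had 13.6 to 18.1 RPM. A window inside Dscam, a neuronal adhesion gene (chr16:96900001-96905000), went from 8.02, 13.2 and 4.38 RPM to 0 as well. Windows on chromosome 1 (chr1:194110001-194115000) and chromosome 10 (chr10:129530001-129535000) went from 0 in the 3 controls to 8.22, 5.08 and 9.96 RPM and to 10.8, 10.6 and 1.74 RPM. In MC38 a window at Myt1, a neural transcription factor gene (chr2:181815001-181820000), rose from 0 in the controls to 7.75, 8.89 and 6.81 RPM (adjusted p = 0.0161). DESeq2 called 249 distal windows in B16 and 219 in MC38, and 362 for the difference. Its share over all windows is not given here, so these counts do not set the distal windows apart. A group at 0 means that no island was called there in 3 libraries, and each of these calls set such a group against one with islands. In a fit that held only the libraries of 1 line, 0 distal windows were called for the KO in either mark. Windows with 500 bp or more of island in each library of 1 genotype, and in no library of the other, numbered 46 lost and 36 gained in B16 (0.637% and 0.499% of 7220, against 0.566% and 0.980% of all windows) and 9 lost and 4 gained in MC38 (0.125% and 0.0554%, against 0.141% and 0.0734%). The lost B16 windows were most frequent on chromosome 6, with 11, and the gained ones on chromosome 1, with 10. The outer zone held 11 of the 46 lost and 2 of the 36 gained windows. These balances turned with stricter islands: 29 windows were lost and 47 gained in B16, of which 5 and 13 lay in the outer zone, chromosome 12 had the most gained windows and chromosome 6 still the most lost.

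For H3K9Ac edgeR called 6 windows higher and 1 lower in B16 KO (0.195% of 3586; 0.16% of all windows) and 2 higher and 2 lower in MC38 KO (0.112%; 0.0798% of all windows), and 10 for the difference of the KO effects (0.279%; 0.214% of all windows). With the replicate number as a block, which pairs the H3K9Ac libraries, these counts were 0, 0 and 0. DESeq2 called 186, 100 and 225 distal windows, and its share over all windows is not given here either. A window in Ano1, a chloride channel gene of the region near Ccnd1 (chr7:144660001-144665000), was at 0 in the B16 controls and at 4.77, 6.25 and 3.50 RPM with the KO, against 9.34 to 10.7 RPM in the 6 MC38 libraries. The window of Faap20, a Fanconi anaemia factor (chr4:155255001-155260000), went from 0 to 9.36, 6.89 and 8.99 RPM, and that of the polarity gene Pard3 (chr8:127445001-127450000) from 0 to 3.93, 5.50 and 3.22 RPM. The lowered window was at Sacm1l, a phosphoinositide phosphatase (chr9:123555001-123560000), with 5.67, 6.30 and 5.32 RPM in the controls, against 0.34, 0.39 and 0.30 RPM with the KO. Windows lost and gained by cover numbered 2 and 22 in B16 (0.0277% and 0.305%, against 0.0368% and 0.273% of all windows) and 7 and 7 in MC38 (0.097% each, against 0.0684% and 0.0984%). The 7 lost in MC38 lay in the outer zone, but with stricter islands 1 window was lost and 0 in that zone. Among the MC38 calls, a window at Bicd1, a dynein adaptor (chr6:149505001-149510000), had 4.51, 5.16 and 3.69 RPM in the controls and 0 with the KO, and one at Shank2, a synaptic scaffold gene (chr7:144410001-144415000), had 0 in the controls and 4.66, 1.47 and 5.69 RPM with the KO.

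The distal windows overlapped 896 genes, 486 of them protein-coding. The outermost protein-coding gene of each end showed which kinds of gene sit at the edge. Several belong to families of near-identical copies, among which reads may be shared; how such reads were counted is not given in the sources used here. Mucl2 (144 kb from the end of chromosome 15) had 75.0, 69.3 and 76.8 RPM of H3K9me3 in B16 control and 67.1, 64.4 and 62.9 RPM in MC38 control, and 66.0 to 85.1 RPM in the 6 KO libraries, so the controls of the lines lay close without overlapping (adjusted p = 0.8983). Vmn2r129 (chromosome 4) had 82.4, 66.4 and 81.7 RPM in B16 control and 81.0, 109 and 153 RPM in MC38 control, which overlapped. Tmem196, a membrane protein gene 108 kb from the end of chromosome 12, had 381, 281 and 290 RPM in B16 control and 0, 23.5 and 20.7 RPM in MC38 control, without overlap, but did not pass the test (adjusted p = 0.241). Wls, the carrier of Wnt ligands at the end of chromosome 3, and Rfc3, a clamp loader subunit at the end of chromosome 5, had H3K9Ac in every group, at 89.1 ± 12 and 105 ± 19 RPM in B16 and MC38 control for Wls and 37.9 ± 3.8 and 45.2 ± 0.7 RPM for Rfc3. Csf2ra, a subunit of the GM-CSF receptor 203 kb from the end of chromosome 19, had 31.5, 28.8 and 19.47 RPM of H3K9Ac in B16 control, 24.8 to 35.7 RPM with the KO and 0 in all 6 MC38 libraries (MC38 control against B16 control, edgeR, adjusted p = 0.002085).

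Across the 458 genes measured for H3K9me3 the KO comparison called 0 in B16 (23 at an unadjusted p under 0.05, 25 by DESeq2; 0.312% of all genes were called), 1 in MC38 (0.136% of all genes) and 1 for the difference of the effects (0.397% of all genes). The gene called in MC38 and for the difference was Gm18895, a pseudogene in the Myt1 window, with 0 in the MC38 controls, 20.65, 23.8 and 16.97 RPM in MC38 KO and 12.3 to 28.2 RPM in the 6 B16 libraries. Its MC38 adjusted p was 0.0285, and 0.6956 with stricter islands. Across the 627 genes measured for H3K9Ac it called 2 in B16 (0.319%; 0.0962% of all genes), 0 in MC38 (28 at an unadjusted p under 0.05, 16 by DESeq2; 0.0597% of all genes) and 2 for the difference (0.319%; 0.126% of all genes). Both were Nim1k, a protein kinase of the AMPK-related family, and Gm41077, a non-coding gene that starts within Nim1k on the other strand, so they share the same island and are 1 event. In a fit of only the libraries of 1 line, 0 genes were called for the KO in either mark. The shares of all genes are those of edgeR, and the DESeq2 counts stand without such a share.

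At Nim1k, H3K9Ac was 0 in the 3 B16 controls, 23.5, 15.8 and 27.8 RPM in the B16 KO libraries, 48.0, 34.4 and 30.6 RPM in MC38 control and 27.8, 31.2 and 26.9 RPM in MC38 KO. The B16 controls were thus the single group without an island at this start (edgeR, B16 KO against control, adjusted p = 0.001261; difference of the KO effects, adjusted p = 0.002245). With the replicate block the adjusted p was 0.1154 and 0.08222, in a fit of only the B16 libraries 0.4819, and with stricter islands no B16 library had an island there. Its promoter (GRCm38.p6, chr13:119755833-119756132, minus strand, 13 CG, capitals mark CG) is shown because it is the start on which the only H3K9Ac gene calls of the KO rest.
Nim1k: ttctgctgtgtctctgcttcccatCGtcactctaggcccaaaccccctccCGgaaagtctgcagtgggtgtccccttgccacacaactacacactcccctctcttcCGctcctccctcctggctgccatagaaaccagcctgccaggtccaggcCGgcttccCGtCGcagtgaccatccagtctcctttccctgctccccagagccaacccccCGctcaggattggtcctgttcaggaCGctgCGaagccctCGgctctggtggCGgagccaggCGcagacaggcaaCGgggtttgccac

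Between the control groups 12 genes were higher and 32 lower in MC38 for H3K9me3 (9.61% of 458, against 7.14% of all genes), and 33 higher and 40 lower for H3K9Ac (11.6% of 627, against 11.9% of all genes). Macc1 (chr12:119390398-119466934, plus strand) had 340, 264 and 310 RPM of H3K9me3 in B16 control, 355, 219 and 223 RPM with the KO and 0 in all 6 MC38 libraries (adjusted p = 0.001869). Other genes with H3K9me3 in every B16 library and in no MC38 library were Cdcp1, a transmembrane glycoprotein of carcinoma cells, at 81.1 to 163 RPM in B16 control, Slc6a20b, an amino acid transporter, at 42.9 to 87.6 RPM, Sp4, a zinc finger transcription factor, at 59.3 to 80.3 RPM, and Cd34, a sialomucin of blood progenitors and vessels, at 42.8 to 81.75 RPM. Lrrc7 (chr3:158067186-158561983, minus strand) had 149, 42.8 and 32.8 RPM in B16 control and 2539, 1906 and 2908 RPM in MC38 control (log2 difference 5.03 ± 0.79 SE, adjusted p = 0.00537). Rpe65, the retinoid isomerase of the visual cycle on the same chromosome, had 46.3, 41.65 and 47.7 RPM in B16 control and 178, 168 and 224 RPM in MC38 control (2.07 ± 0.42, adjusted p = 0.01333). Dscam and Fgf14, both long neuronal genes, were higher in MC38 by 2.87 ± 0.64 and 4.92 ± 1.098 (adjusted p = 0.02013 and 0.02096). Of these, Macc1, Cdcp1 and Lrrc7 kept their calls under all 13 settings. Dscam and Fgf14 lost theirs with stricter islands and when any B16 control library or MC38 control replicate 3 was left out. Fgf14 also lost its call without MC38 control replicate 1. Rpe65 lost its call without B16 control replicate 2, with stricter islands or with scaling to total island reads. Slc6a20b had no island under the stricter setting, and there Cd34 lost its call too.

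Plxna2 carried opposite marks in the lines. It had 81.6, 177 and 96.8 RPM of H3K9me3 in B16 control, 457, 123 and 217 RPM with the KO and 0 in MC38, and 0 of H3K9Ac in B16 against 35.99, 47.3 and 50.2 RPM in MC38 control and 44.1 to 49.8 RPM in MC38 KO (adjusted p = 0.003555 for H3K9me3 and 0.0002903 for H3K9Ac). The H3K9me3 call was lost with stricter islands (edgeR, adjusted p = 0.1527). Between the lines the replicate block compares the first replicate of each line only, so its values below do not decide these calls. Cd34 had the same pair of marks, with H3K9Ac at 0 in B16 and at 13.9, 18.7 and 15.4 RPM in MC38 control (adjusted p = 0.01681; 0.1532 with the replicate block and 0.193 with stricter islands). Itgbl1, an integrin-like secreted protein on chromosome 14, had H3K9Ac in MC38 alone, at 34.3, 58.9 and 20.4 RPM in control (adjusted p = 0.001201). Bace2 had it in B16 alone, at 88.0, 45.01 and 69.4 RPM in control and 41.4 to 80.0 RPM in KO libraries (adjusted p = 0.0002013), as had Dnah11, a ciliary dynein gene, at 17.3 to 25.4 RPM in control (adjusted p = 0.004556). Grk5, a kinase of G protein-coupled receptors, fell from 109, 124 and 96.3 RPM in B16 control to 55.1, 53.1 and 58.2 RPM in MC38 control (-0.99 ± 0.15, adjusted p = 0.001908, with the replicate block 0.05375), and Ssu72, a phosphatase of RNA polymerase II, from 72.7 to 88.3 RPM to 51.9 to 53.9 RPM (-0.60 ± 0.10, adjusted p = 0.002669, with the replicate block 0.08451).

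**Figure D4:**
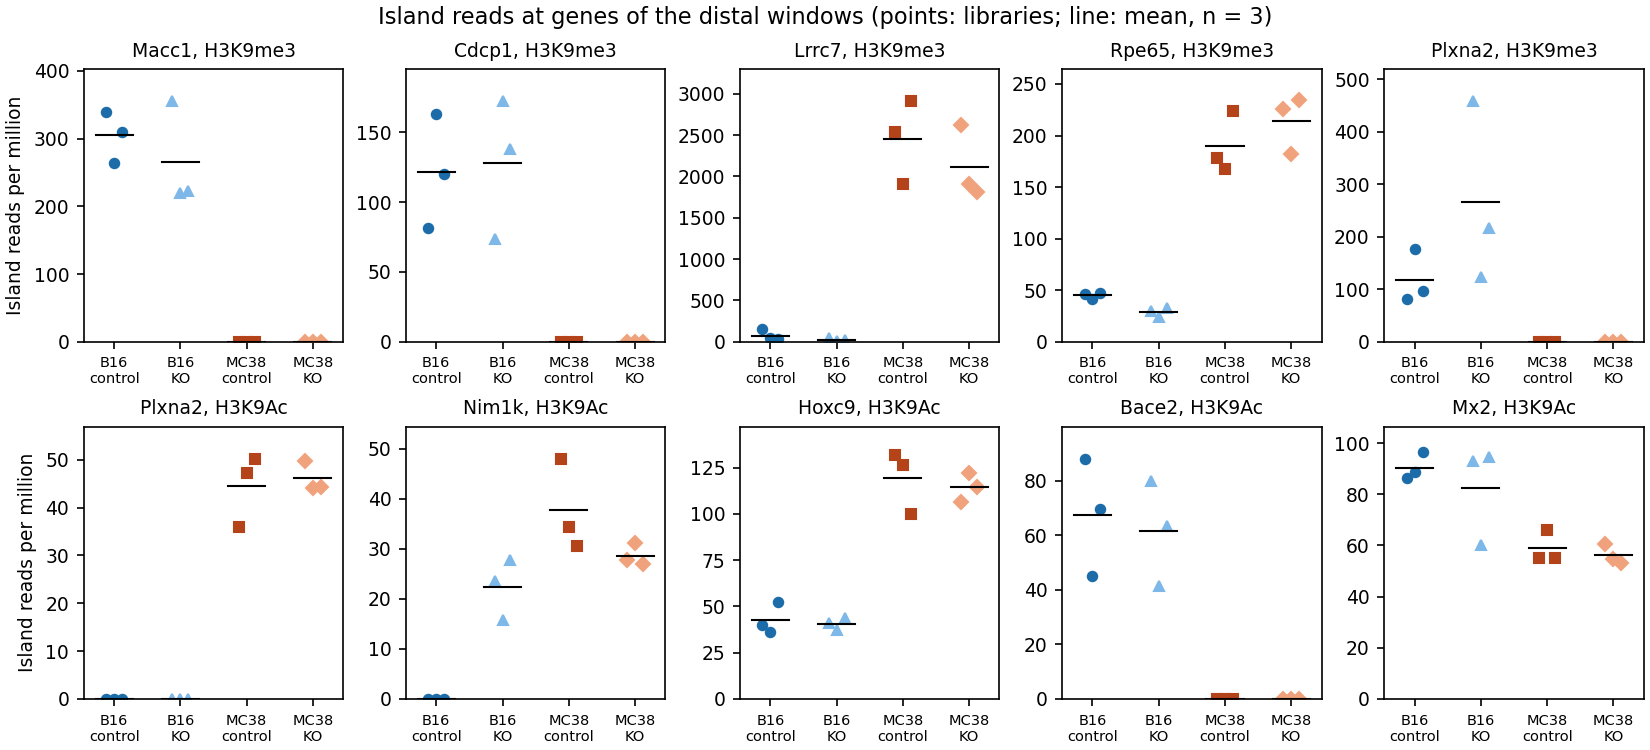
Island reads in RPM (vertical axis) at 9 genes of the distal windows in the 4 groups (horizontal axis), with 1 point per library and a line at the mean of 3. Macc1, Cdcp1 and Plxna2 carry H3K9me3 in B16 alone, Lrrc7 and Rpe65 are higher in MC38, and at Nim1k the B16 controls are at 0 while the other 3 groups have H3K9Ac.

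Gene lists were read the same way, by counts and by the median log2 ratio of group means plus 1 RPM. Of all genes tested between the control groups, 725 were higher and 1107 lower in MC38 of 25675 for H3K9me3 and 1646 higher and 1935 lower of 30131 for H3K9Ac. List medians are log2 ratios of MC38 to B16 control means, each plus 1 RPM, over the measured members, and the same median over all genes was -0.18 for H3K9me3 and 0.00 for H3K9Ac. No member of any list was called for the KO in either line or mark. Medians of KO to control were not all at 0. In the lists with 5 or more genes measured for H3K9me3, those of B16 were 0.94 (chemokine receptors), 0.39 (HoxC) and -0.45 (zinc finger genes). They were 0.00 for olfactory and vomeronasal receptors and over all genes. The HoxC genes, the transcription factors of body patterning near the end of chromosome 15, were 5 of 9 higher in MC38 for H3K9Ac (median 2.49, against 0.00 over all genes). Hoxc9 had 39.9, 36.4 and 52.4 RPM in B16 control and 132, 126 and 100.1 RPM in MC38 control (1.48 ± 0.16, adjusted p = 0.0002327; 0.3865 with stricter islands). The 5 were Hoxc5, Hoxc6, Hoxc9, Hoxc11 and Hoxc12. With stricter islands Hoxc5 and Hoxc6 did not pass either (edgeR, adjusted p = 0.1386 and 0.05229), while Hoxc11 and Hoxc12 did (2.214e-05 and 0.0001157). Hoxc9 to Hoxc12 hold the same values in MC38 control, and so do Hoxc4 to Hoxc6, so they are not separate evidence. For H3K9me3, 1 of 8 HoxC genes passed, Hoxc13, with 35.6, 55.9 and 28.3 RPM in B16 control and 0 in MC38 (adjusted p = 0.007094). The interferon-induced genes Mx1 and Mx2, 2 of 3 on their list and transcribed pseudogenes in the RefSeq table, were lower in MC38 for H3K9Ac (list median -0.61): Mx1 had 54.4, 60.8 and 43.95 RPM in B16 control and 0 in MC38 control (adjusted p = 0.007777), and Mx2 86.2, 88.6 and 96.45 RPM against 55.3, 66.1 and 55.3 RPM (-0.62 ± 0.17, adjusted p = 0.03505, with the replicate block 0.1362). Of 4 melanocyte genes, 2 were lower in MC38 for H3K9Ac (list median -0.41). Pmel, the fibril protein of melanosomes, had 63.6, 72.0 and 72.1 RPM in B16 control and 40.0, 44.5 and 54.6 RPM in MC38 control (-0.58 ± 0.12, adjusted p = 0.00774, with the block 0.06531), and Tspan10 71.5 and 43.6 RPM on average (adjusted p = 0.04583, with the block 0.1106). With stricter islands Pmel passed and Tspan10 did not (edgeR, adjusted p = 0.01949 and 0.1683).

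Among 58 olfactory receptor genes, odorant sensors silent outside the nose, 45 were measured for H3K9me3 and 1 was higher in MC38, Olfr804, at 25.9, 24.1 and 32.0 RPM in MC38 control, 36.1, 12.7 and 2.07 RPM in MC38 KO, whose lowest value is replicate 3, and 0 in B16 (adjusted p = 0.02821; lost under 8 of 13 settings). The median of the list was 3.225, against -0.18 over all genes. Of 5 measured vomeronasal receptors 0 passed, with a list median of 1.37 (1 of 6 was not measured). Of 8 chemokine receptors near the end of chromosome 9, 7 were measured for H3K9me3 (list median -3.36) and 1 was lower in MC38, the eosinophil receptor gene Ccr3, with 52.9, 32.8 and 21.4 RPM in B16 control and 0 in MC38 (adjusted p = 0.006533; 0.2322 with stricter islands). Of the 10 genes of telomere, chromosome maintenance and heterochromatin, 0 passed for H3K9Ac (list median -0.0027). Rtel1, a telomere helicase, had 53.0, 46.2 and 54.7 RPM in B16 control and 48.3, 57.9 and 69.5 RPM in MC38 control, and Cbx5, the gene of heterochromatin protein 1 alpha, 76.4, 70.5 and 68.2 RPM and 69.1, 59.7 and 75.5 RPM, so both overlapped. For H3K9me3, 2 of the 10 were measured and Prdm16, a methyltransferase of the PRDM family, was lower in MC38 (102 RPM in B16 control and 0 in MC38 control, adjusted p = 0.008721; 0.1333 with stricter islands). In the remaining lists, 1 of 3 tumour necrosis factor receptors (Tnfrsf14) and 1 of 8 measured zinc finger genes (Zfp512b) were higher and 1 of 7 genes of the Fgf and Ccnd1 neighbourhood (Fadd, a death receptor adaptor) and 1 of 10 broadly active genes (Arhgdia) lower in MC38 for H3K9Ac, and 0 of 4 early embryo and germline genes passed for either mark. The H3K9Ac medians of these lists were 0.53, 0.06, -0.55, -0.23 and 1.48 (the last over 2 measured genes) in this order. With the replicate block, which does not decide calls between the lines, Tnfrsf14 and Zfp512b did not pass (edgeR, adjusted p = 0.2741 and 0.06734). With stricter islands Tnfrsf14 did not pass and Zfp512b did (edgeR, adjusted p = 0.0916 and 0.03307).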

How the data were processed

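H3K9me3 and H3K9Ac were profiled by ChIP-seq in 24 libraries of 2 mouse lines. The submitters' processing notes name cutadapt, Bowtie2 2.1.0, SAMtools 0.1.8, SICER 1.1, deepTools 3.1.1 and build mm10, without their roles. The authors deposited, per library, enriched islands (window 200 bp, gap 600 bp, FDR 0.05, per the deposited file names) with a whole-number read count for each. Reads outside islands are not in these counts, so a value of 0 means that no island was called. How reads with several genomic matches were placed, and whether the 4 input libraries entered the calling, is not given in the sources used here.

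Island reads were spread evenly over each island, summed over 5 kb windows, 100 kb bands, 2 Mb blocks and genes, and rounded. For H3K9me3 the gene region was the body with 2 kb on both sides. For H3K9Ac it was 2 kb on both sides of the 5′ end where the annotation gives strand, as for 541 of the 896 distal genes. For the other genes the end with more H3K9Ac island reads was used, so the mark itself chose that region. The strand of reads is not recorded, so overlapping genes cannot be told apart. Features with a mean of 10 or more island reads entered edgeR 4.0.16 (quasi-likelihood test, TMM, R 4.3.3) with all 12 libraries of a mark, and p-values were adjusted by Benjamini-Hochberg over all features of chromosomes 1 to 19 and X, with a threshold of 0.05. On simulated counts of the B16 KO comparison with 4-fold changes, 93.0% (60000 H3K9me3 windows) to 100.0% (1271 H3K9me3 blocks) of the changed features were recovered. The simulated counts had a fixed dispersion of 0.05 and no islands that drop to 0. They check the fit and do not give the share that would be recovered in these libraries. Values with 1 number per library were compared by exact permutation tests. Libraries with more reads can have more islands called.

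Replicate numbers were checked for pairing in the 100 kb bands. For H3K9Ac the same-numbered control and KO libraries deviated together (correlations 0.335, 0.607 and 0.58 in B16 and 0.234, 0.572 and 0.439 in MC38). Fits with the replicate number as a block are therefore given where they end a call. The block pairs control and KO within a line. Between the lines it compares the fitted levels of the first replicate of each line only, so it does not decide such calls. Alternatives were DESeq2 1.42.0, its size factors, scaling to total island reads, no filter, the replicate block, fits of only the groups compared, stricter islands (reads per kb at or above the library's median island) and leaving out each of the 6 libraries compared; these are the 13 settings counted in the text.

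Named genes are, for each mark and comparison, up to 6 called protein-coding genes in each direction by smallest p, from each list no more than 3 members, those with the lowest p, the outermost protein-coding gene of each end and the 3 longest runs of called windows in each direction; others are named because a count rests on them. The windows, lists and tests were chosen with earlier results of these data known.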

Additional observations from a re-analysis of the deposited data

Results flagged for a closer look

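The KO effect differed between the lines, by the interaction term of edgeR's quasi-likelihood test, at 3 genes. At Nim1k the H3K9Ac effect in B16 minus that in MC38 was 11.24 on the log2 scale (adjusted p = 0.002245) and at Gm41077, which lies at the same island, 11.31 (adjusted p = 0.001398). At Gm18895 the H3K9me3 difference was -10.16 (adjusted p = 0.03065). Each of these fitted values sets a group with no island in its 3 libraries against groups with islands, so its size depends on the prior count of the fit and is not a fold change. With the replicate block the adjusted p was 0.08222 for Nim1k and for Gm41077.

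At the scale of windows the KO effect differed between the lines at 8 distal windows for H3K9me3 and at 10 for H3K9Ac by the same test, which is 0.203% and 0.279% of those tested, against 0.429% and 0.214% of all windows. With the replicate block both counts were 0.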

How the results depend on the processing

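Of the values compared by zone, the sign of the KO difference in H3K9me3 length turned in B16 at 100 to 400 kb (-0.0352 Mb) and in MC38 for the last 1 Mb (-0.01707 Mb), and that of the outer-zone log2 ratio in MC38 with stricter islands (0.03029). Leaving out 1 library gave H3K9me3 length differences in MC38 of -0.6569 to 1.187 Mb, H3K9Ac length differences in MC38 of -0.4487 to 0.0909 Mb, H3K9me3 share differences in MC38 of -0.1256 to 0.01874 percentage points, and outer-zone log2 differences of -0.1038 to 0.1055 (H3K9me3, MC38) and -0.0213 to 0.0617 (H3K9Ac, B16). The log2 ratio of distal to other windows for H3K9me3 over both lines had an unadjusted exact permutation p under 0.05 with stricter islands (0.2878), for the last 1 Mb (0.2032), as island reads per kb (0.03672), against the first 2 Mb next to the centromere (0.1743) and for 100 to 400 kb (0.7864); adjusted, the comparison with the first 2 Mb had p = 0.05625. In B16 the unadjusted p was above 0.05 for 400 to 2000 kb (0.1693). In MC38 it turned positive with stricter islands (0.08173), as island reads per kb (0.03328), against the first 2 Mb (0.07334) and for 100 to 400 kb (0.4268). For H3K9Ac it was -0.3583 over both lines, -0.4247 in B16 and -0.2919 in MC38 against the windows 2 to 4 Mb from the end, 0.03712, 0.1165 and -0.0423 against the first 2 Mb, and -0.4415, -0.6002 and -0.2829 for 100 to 400 kb. Leaving out 1 library gave 0.2741 to 0.3527 (H3K9me3, B16), 0.2706 to 0.2963 (H3K9Ac, B16) and 0.4078 to 0.4307 (H3K9Ac, MC38), where 5 libraries cannot pass.

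The H3K9me3 replicate numbers did not pair the MC38 libraries (correlations 0.398, 0.144 and -0.396). In B16 the same-numbered libraries all correlated positively (0.378, 0.24 and 0.09), though weakly for the last of them. With the replicate block the called H3K9me3 windows numbered 0 (B16 KO), 0 (MC38 KO), 0 (difference of the KO effects) and 52 (between the lines), and the genes 0 for MC38 KO, 0 for the difference and 8 between the lines. For H3K9Ac the block left 0 windows in the 3 KO comparisons and 0 genes in B16 KO and in the difference. The block counts between the lines compare the first replicate of each line only. With only the groups compared, 0 windows were called for B16 KO and 0 for MC38 KO in both marks, 847 H3K9me3 windows and 88 H3K9me3 genes between the lines, and 0 H3K9me3 genes for MC38 KO and 0 H3K9Ac genes for B16 KO. With stricter islands the H3K9me3 windows were 1, 0, 1 and 196 in the order above, the H3K9Ac windows of the KO comparisons 2, 1 and 3, the blocks between the lines 5 (H3K9me3) and 6 (H3K9Ac), the H3K9me3 genes 1, 0, 0 and 17, and the H3K9Ac genes 0 for B16 KO and 0 for the difference. Without the filter 0 H3K9me3 genes differed in the KO effect. DESeq2 called 249, 219, 362 and 1550 H3K9me3 windows, 186, 100, 225 and 797 H3K9Ac windows, 25, 38, 44 and 170 H3K9me3 genes and 35, 16, 40 and 144 H3K9Ac genes. These DESeq2 counts are of distal windows and genes and stand without its share over all windows and genes. The cause of these differences in calls was not tested.

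Leaving out 1 library gave 6 to 19, 6 to 17 and 8 to 24 H3K9me3 windows and 5 to 22, 5 to 12 and 7 to 24 H3K9Ac windows in B16 KO, MC38 KO and their difference, 6 to 11 blocks between the lines in each mark, 0 to 2, 1 to 4 and 0 to 3 H3K9me3 genes and 2 to 7, 0 to 1 and 2 to 5 H3K9Ac genes. Windows that lost or gained islands numbered 8 and 9 (H3K9me3, B16), 0 and 0 (H3K9me3, MC38), 0 and 4 (H3K9Ac, B16) and 0 and 0 (H3K9Ac, MC38) with 2500 bp as the minimum, and with stricter islands 29 H3K9me3 windows were lost and 47 gained in B16, 11 H3K9Ac windows gained in B16 and 1 lost in MC38. The comparisons kept their direction and side of the threshold, or a count within 1.5 times, in 434 other recomputed values. Of the rest, 117 counts moved outside that range, 23 values turned sign, 21 missed the threshold and 5 came to pass it. Among values of single genes, single blocks and counts of called bands, 583 were kept. There 102 values of single genes and blocks missed the threshold and 32 counts of called bands moved. Island depth limits all of these values, since an island below the calling threshold reads as 0.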
